A study of Mus musculus with 3 samples.

Results

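The genes described here encode laminins and the proteins that join them into a basement membrane: the laminin alpha chains *Lama2*, *Lama4* and *Lama5*, the beta chains *Lamb1* and *Lamb2*, the gamma chain *Lamc1*, the nidogens *Nid1* and *Nid2*, perlecan (*Hspg2*) and agrin (*Agrn*). They were chosen by symbol, as 10 of the 32285 genes counted, and all 10 were found in the files. Their levels were read in fibro-adipogenic progenitors (FAPs), muscle stem cells (MuSCs), endothelial cells, mural cells (pericytes and smooth muscle) and Schwann cells of mouse diaphragm. The data are 3 single-cell RNA-Seq libraries of mononuclear cells from the costal diaphragm of male mice, released with collagenase II and sorted to remove dead (DAPI-stained) cells. The WT CD library came from C57Bl/6J mice kept on control diet (CD), the WT HFD library from C57Bl/6J mice on high-fat diet (HFD, 45% of calories from lipid), and the KO HFD library from B6.129S2-Thbs1tm1Hyn/J mice, which carry a germline deletion of thrombospondin 1 in all tissues, on the same HFD. Each diet lasted 6 months, after chow until 2 months of age. Each group was a pool of 2 mice captured as 1 library, so every difference between groups below lacks a replicate check, and no test between groups was possible.

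A laminin is a cross-shaped trimer of 1 alpha, 1 beta and 1 gamma chain that is secreted into the basement membrane, the thin sheet of matrix under endothelium and around muscle fibers, Schwann cells and vessel walls. The alpha chain carries the sites bound by integrins and by dystroglycan, nidogens and perlecan link the laminin network to the collagen IV network, and agrin ties laminin to dystroglycan and organizes the neuromuscular junction. In skeletal muscle the laminin with the *Lama2* chain surrounds the fibers, and loss of *Lama2* causes a congenital muscular dystrophy, while *Lama4* and *Lama5* are the alpha chains known from vessel walls.

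The libraries held 34312860 UMIs in 4132 barcodes (WT CD), 31967976 in 3774 (WT HFD) and 36478779 in 4369 (KO HFD), where a unique molecular identifier (UMI) marks 1 captured mRNA molecule. They shared 2 to 7 barcode sequences per pair of libraries. Cells were assigned to classes by clustering without the genes described here, and clusters were named from marker genes, so that a class is called FAP-like, for example. The FAP-like class had 1552 cells in WT CD, 1404 in WT HFD and 1780 in KO HFD, the MuSC-like class (in this order) 416, 286 and 479, and the endothelial-like class 311, 308 and 258. The mural-like class was small, with 17, 29 and 27 cells, as was the Schwann-like class, with 33, 30 and 40. The markers fitted the names: *Pdgfra* stood at 383, 400.2 and 450.4 counts per 1000000 (CPM) in FAP-like cells, *Pax7* at 270, 300.3 and 270 in MuSC-like cells, *Cdh5* at 1129, 1081 and 913 in endothelial-like cells, *Rgs5* at 3082, 4103 and 4099 in mural-like cells and *Ncmap* at 952, 1078 and 675 in Schwann-like cells. A pair of clusters with FAP markers had tenocyte markers but no FAP marker among their leading genes, *Tnmd* and *Thbs4* in one and *Thbs4* alone in the other. FAP was still the best-scoring name for both, with mean log2 ratios of 1.58 and 1.19 against 1.01 and 0.17 for tenocyte. These clusters held 677, 571 and 615 cells, were kept out of the FAP-like class and are given separately by number.

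Levels are CPM of UMIs added up within 1 class and 1 library, always listed in the order WT CD, WT HFD, KO HFD. The 3′ chemistry counts each molecule at 1 end, so these levels do not grow with transcript length, although capture may differ between genes. Intervals are exact, at 95%, and cover counting error only. *Thbs1*, the gene deleted in the KO, stood at 210.3, 257 and 251 CPM in FAP-like cells. Over all cells it was at 136, 202 and 163. Macrophage-like (104, 353 and 75.3) and tenocyte-like cells (646, 656 and 287) had less in KO HFD than in WT HFD. MuSC-like (22.0, 7.94 and 31.0), endothelial-like (35.2, 10.6 and 37.4) and mural-like cells (143, 246 and 373) had more. The count is taken near the 3′ end and therefore does not check the deletion.

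FAP-like cells had the highest mean level of 7 of the 10 genes among the 5 classes: *Lama2*, *Lama4*, *Lamb1*, *Lamc1*, *Nid1*, *Nid2* and *Hspg2*. For *Hspg2* this was by only 341 against 319 CPM in endothelial-like cells. Across all 10405 genes compared, 16.8% were highest in FAP-like cells. Mural-like cells had the highest mean level of *Lama5* and *Lamb2* (background 23.6%), and endothelial-like cells that of *Agrn* (background 22.8%), although by only 39.9 against 39.4 CPM in Schwann-like cells. MuSC-like and Schwann-like cells led for none (backgrounds 12 and 24.9%). Depth differed between the classes, from a median of 2951 UMIs per mural-like cell to 9280 per FAP-like cell. B-cell-like cells, which should lack these genes, had *Nid1* at 37.1, 36.9 and 46.1 CPM and *Lamc1* at 21.4, 18.4 and 39.3 as their highest levels, and T-or-NK-like cells had a mean of 55.7 CPM of *Nid1* and 30.2 of *Lama2*. Whether free RNA or captured pairs of cells gave these levels was not tested.

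**Figure D1:**
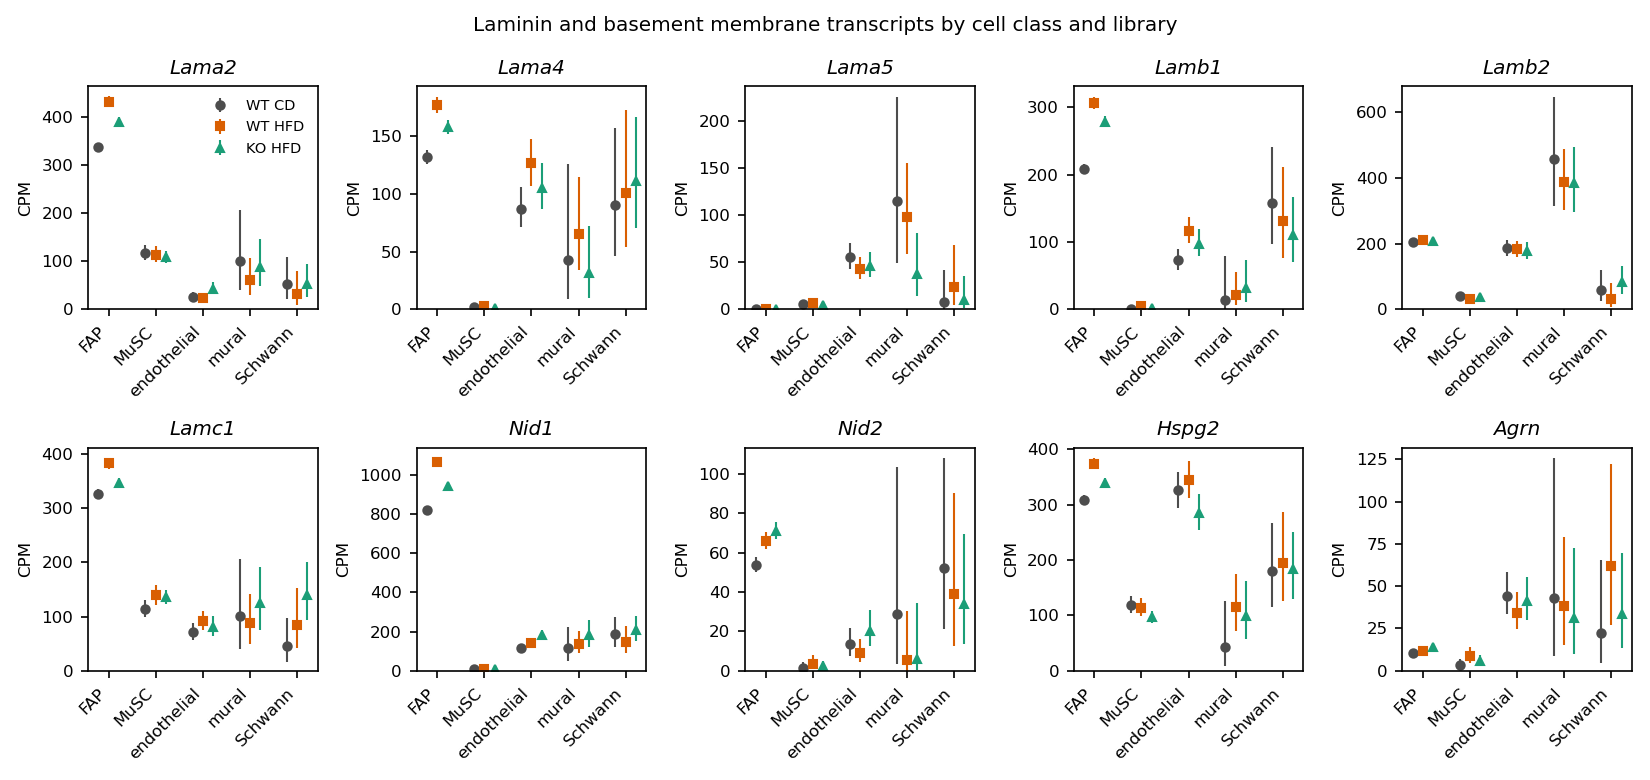
CPM of each of the 10 genes in the 5 classes (x axis), by library (grey circle WT CD, orange square WT HFD, green triangle KO HFD), with exact 95% Poisson intervals for counting error. FAP-like cells have the highest mean over libraries for 7 genes (for *Hspg2* they are highest in 2 of 3 libraries), *Lama5* is at or near 0 there, and the intervals of mural-like and Schwann-like cells are wide.

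*Lama2*, which encodes the alpha chain of the laminin around muscle fibers, stood at 337, 432 and 389.8 CPM in FAP-like cells and at 117, 114 and 109 in MuSC-like cells. Among the 5 classes it was highest in FAP-like cells in 3 of 3 libraries, 3.41 times the mean of MuSC-like cells, the next of the 5. The pair of FAP clusters with tenocyte genes had more in each library, at 369, 463 and 409 CPM, and tenocyte-like cells, a class of 61 cells, had 295, 262 and 291. The FAP marker *Dcn* was at 15275, 13096 and 14363 CPM in FAP-like cells and at 135, 108 and 146 in MuSC-like cells. Its part in the *Lama2* of MuSC-like cells was not tested. Mural-like cells had 100.3, 60.1 and 87.1 CPM of *Lama2* from 7, 11 and 14 UMIs, and Schwann-like cells 52.5, 31.0 and 53.0 from 7, 4 and 11 UMIs. *Dcn* in those cells was 1390, 666 and 2314 CPM (mural-like) and 1162, 15.5 and 1249 (Schwann-like), and its part in their *Lama2* was not tested.

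*Lama4*, an alpha chain of vessel and nerve basement membranes, stood at 132, 177 and 158 CPM in FAP-like cells, at 87.1, 126 and 105 in endothelial-like cells and at 90.0, 101 and 111 in Schwann-like cells. The counting intervals of the Schwann-like and endothelial-like levels overlapped in each library. In MuSC-like cells *Lama4* had 4, 5 and 4 UMIs (2.09, 3.05 and 1.33 CPM), close to the 2.27, 2.05 and 3.37 CPM of B-cell-like cells. The highest levels of all classes were in lymphatic-endothelial-like cells, at 275, 264 and 183 CPM.

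*Lama5*, the other alpha chain of mature vessel walls, was nearly missing from FAP-like cells. It had 2 UMIs in the WT CD library and 0 in the other libraries, which allows at most 0.225 CPM in WT HFD and 0.190 CPM in KO HFD (3 counts of the total). Endothelial-like cells had 55.3, 42.4 and 46.0 CPM, and mural-like cells 115, 98.3 and 37.3 CPM from 8, 18 and 6 UMIs. The mural-like level in WT HFD did not differ from that in WT CD beyond counting error (log2 ratio -0.22, -1.50 to 1.19), and the lower one in KO HFD, below that of endothelial-like cells, rested on 6 UMIs (-1.40 against WT HFD, with an interval down to -3.02 and up to equal levels). Markers in the mural-like class also differed between libraries: the smooth muscle marker *Myh11* stood at 4444, 2546 and 1275 CPM, *Notch3* at 745, 530 and 504 and *Kcnj8* at 358, 442 and 740, and the 6 mural markers summed to 9418, 8183 and 7246. The 5 endothelial markers, led by *Flt1*, summed to 100.3, 1284 and 398 CPM in mural-like cells. The part of these markers in the mural-like levels was not tested.

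The stretches before the start sites of *Lama2* and *Lama5* are shown because these 2 alpha chains were distributed most differently over the classes. They are the 250 bases before the start in RefSeq (build GRCm38.p6, minus strand, printed 5′ to 3′), *Lama2* at chr10:27616943-27617192 and *Lama5* at chr2:180225860-180226109, and capitals mark the GC box letters GGGCGG or, on the other strand, CCGCCC.
Lama2: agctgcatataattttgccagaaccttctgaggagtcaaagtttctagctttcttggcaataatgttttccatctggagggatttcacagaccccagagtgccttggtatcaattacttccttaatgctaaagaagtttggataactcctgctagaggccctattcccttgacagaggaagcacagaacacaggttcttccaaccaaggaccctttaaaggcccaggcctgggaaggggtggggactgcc
Lama5: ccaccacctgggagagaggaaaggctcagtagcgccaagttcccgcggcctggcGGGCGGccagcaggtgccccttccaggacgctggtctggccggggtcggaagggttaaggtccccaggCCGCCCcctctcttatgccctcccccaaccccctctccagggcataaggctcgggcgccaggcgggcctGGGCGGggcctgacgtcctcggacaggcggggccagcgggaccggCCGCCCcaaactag
The *Lama2* stretch held 0 GC boxes and 0 CpG dinucleotides at 47.2% G and C, and the *Lama5* stretch held 4 GC boxes and 19 CpG dinucleotides at 72.4% G and C. Of 32851 promoter stretches of this length in the table, 32.7% held the box, with medians of 6 CpG dinucleotides and 52.4% G and C. The start of *Lama2* differs between annotations: in GENCODE the gene, on the minus strand, begins at 27619758, so this stretch lies inside that gene model, and the bases before the GENCODE start were not read. The start of *Lama5* is the same in both. The table matched 7 of the 10 genes. *Lamb2* (0 boxes, 3 CpG) resembled *Lama2* in these counts, whereas *Lamb1* (2 boxes, 14 CpG), *Nid1* (1 box, 16 CpG) and *Hspg2* (5 boxes, 20 CpG) all held the box. The GENCODE starts of *Lamb2*, *Lamb1*, *Nid1* and *Hspg2* also differ and lie within their stretches, so the end of each stretch is inside the gene model. For *Lamb2* this start is 108479736, in a stretch from 108479612 to 108479861. *Agrn* had a pair of listed starts, with 12 boxes and 35 CpG at one and 2 boxes and 8 CpG at the other. A match of letters is a description and not a binding site.

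As shares of laminin alpha chain UMIs, the classes differed. Over the 3 libraries FAP-like cells had 71.3% *Lama2* (70.7 to 71.9, Clopper-Pearson) and 28.7% *Lama4* of 23294 UMIs, and MuSC-like cells 93.8% *Lama2* (91.8 to 95.3) of 785. Schwann-like cells had 63.2% *Lama4* (51.3 to 73.9) of 76, lymphatic-endothelial-like cells 87.4% *Lama4* (84.2 to 90.2) of 493 and mesothelial-like cells 81.8% *Lama4* (76.9 to 86.1) of 292. Mural-like cells, with the endothelial markers given above, were mixed, with 38.1% each of *Lama2* and *Lama5* (27.7 to 49.3) and 23.8% *Lama4* of 84 UMIs. In FAP-like cells the *Lama2* share hardly moved between libraries, at 71.9, 70.9 and 71.2%. In the FAP clusters with tenocyte genes it was 85.5% (84.1 to 86.9), 81.3% (79.9 to 82.7) and 85.0% (83.6 to 86.4), lowest in WT HFD.

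Endothelial-like cells had 57.7% *Lama4*, 25.9% *Lama5* and 16.4% *Lama2* (13.6 to 19.5) of 640 alpha chain UMIs, but the *Lama2* part came from few barcodes. Scrublet called 31 of the 877 endothelial-like barcodes as doublets, and these 31 held 10.7% of the class's UMIs, 95 of its 105 *Lama2* UMIs and 46.3% of its *Nid1* UMIs. Without them *Lama2* had 7, 3 and 0 UMIs (6.29 and 2.72 CPM, and at most 3.42 CPM in KO HFD), and its share of alpha chains was 2.04%. *Dcn* went from 1102, 710.0 and 1481 CPM to 331, 10.9 and 16.0 with the doublets removed. *Lama4* (84.4, 127 and 99.3 CPM), *Lama5* (57.5, 45.3 and 51.3 CPM) and *Hspg2* (317, 353 and 277 CPM) stayed close to their levels with all barcodes.

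**Figure D2:**
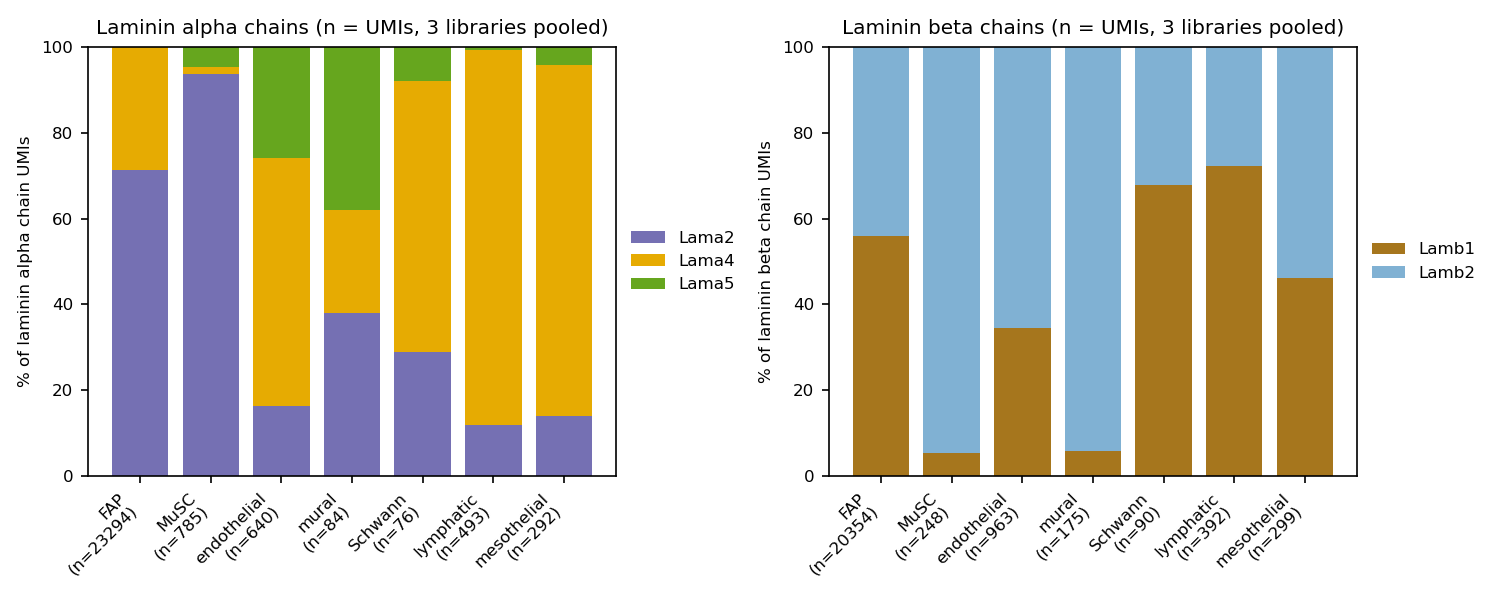
Stacked bars give the percent of laminin alpha chain UMIs (left) and beta chain UMIs (right) from each gene in 7 classes, pooled over the 3 libraries, with the number of UMIs under each class. *Lama2* fills most of the FAP and MuSC bars, *Lama4* most of the lymphatic and mesothelial bars, and *Lama5* is visible mainly in the endothelial and mural bars.

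The beta chains split in another way. *Lamb2*, the beta chain known from synaptic and vascular basement membranes, was highest in mural-like cells, at 459, 388 and 386 CPM, against 205, 212 and 209 in FAP-like, 186, 183 and 177 in endothelial-like and 40.2, 30.5 and 36.0 in MuSC-like cells. *Lamb1*, the more widely expressed beta chain, stood at 208, 307 and 278 CPM in FAP-like cells, at 157, 132 and 111 in Schwann-like and at 72.9, 117 and 97.7 in endothelial-like cells. In MuSC-like cells *Lamb1* had 0, 7 and 6 UMIs (B-cell-like cells had 5.12, 2.73 and 3.37 CPM, MuSC-like cells 4.27 CPM at most) and made up 5.24% (2.82 to 8.80) of beta chain UMIs. The *Lamb1* share was 5.71% (2.77 to 10.3) in mural-like cells, 34.5% (31.5 to 37.6) in endothelial-like, 55.9% (55.3 to 56.6) in FAP-like and 67.8% (57.1 to 77.2) in Schwann-like cells. Within the Schwann-like class the cluster with *Ncmap* among its leading genes had 86.8% *Lamb1* (74.7 to 94.5) of 53 beta chain UMIs, and the cluster led by *Col20a1* and *Chl1* had 40.5% (24.8 to 57.9) of 37, with intervals that do not overlap. Clustering had left these genes out, but the 2 clusters are not replicates.

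*Lamc1*, the gamma chain that all of these trimers share, stood at 326, 383 and 347 CPM in FAP-like cells, at 114, 139 and 135 in MuSC-like, 72.1, 91.3 and 81.4 in endothelial-like, 100.3, 87.4 and 124 in mural-like and 45.0, 85.3 and 139.8 in Schwann-like cells. Without doublets the endothelial-like levels were 65.55, 71.5 and 53.6 CPM. The levels in mural-like and MuSC-like cells overlapped in their counting intervals. In MuSC-like cells *Lamc1* was close to *Lama2* in WT CD and above it in KO HFD, where their intervals did not overlap (97.3 to 121 CPM for *Lama2*, 123 to 149 for *Lamc1*), and the beta chains were lower than both.

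*Nid1* was the most abundant of the 10 genes in FAP-like cells, at 822, 1069 and 944 CPM. The FAP clusters with tenocyte genes followed at 738, 891 and 818, and tenocyte-like cells at 598, 281 and 542. Of the other classes among the 5, Schwann-like cells had 187, 147 and 207 CPM and endothelial-like cells 118, 141 and 181 (81.7, 96.9 and 82.1 without doublets). The 8.89, 9.77 and 6.67 CPM of MuSC-like cells lay below the level of B-cell-like cells. *Nid2* was lower, at 53.9, 66.1 and 71.3 CPM in FAP-like cells and 52.5, 38.8 and 33.8 in Schwann-like cells, and mesothelial-like cells had the most of any class, at 142, 92.3 and 129.

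*Hspg2*, whose product perlecan carries heparan sulfate chains, stood at 309, 374 and 339 CPM in FAP-like and at 326, 345 and 285 in endothelial-like cells. These neighbours in the order changed places between libraries, with endothelial-like cells above FAP-like cells in WT CD. Their counting intervals overlapped in WT CD and in WT HFD. Schwann-like cells had 180, 194 and 183 CPM and MuSC-like cells 119, 114 and 96.8. *Agrn* was low throughout, at 44.4, 34.2 and 41.2 CPM in endothelial-like, 10.7, 11.7 and 13.8 in FAP-like and 3.14, 8.55 and 6.01 in MuSC-like cells, with lymphatic-endothelial-like (56.1, 50.6 and 40.6) and mesothelial-like cells (56.1, 48.8 and 59.8) having the highest means. Schwann-like cells had 22.5, 62.1 and 33.8 CPM of *Agrn* from 3, 8 and 7 UMIs, so endothelial-like cells led the 5 classes in 2 of 3 libraries.

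Over the 15 combinations of 5 classes and 3 libraries, the members fell into patterns. On log2(CPM + 1), *Lama4* went most with *Lamb1* (Pearson's r = 0.95) and *Nid1* (0.93), *Lama2* with *Lamc1* (0.88), and *Lama2* ran against *Lama5* (-0.80). Among 9788 genes, those most like *Lama2* were *Enpp2*, *Il11ra1* and *Vldlr* (0.95 to 0.96), *Gcnt2* and *Sorbs2* were among those most like *Lama5* (0.95 and 0.94), and those most like *Nid1* were *Mfap5*, *Cyb5a* and *Smim14* (0.96 to 0.97). *Lamb2* went most with *Procr* (0.98), *Hspg2* with *Tgoln1* (0.98), *Lama4* with *Ctsd* (0.97), *Lamb1* with *Rrbp1* (0.96), *Lamc1* with *Bicc1* (0.95), *Nid2* with *Pla2g4a* (0.95) and *Agrn* with *Prelid2* (0.95). The 15 points share 3 libraries and differ in depth, so these are descriptions. The endothelial-like points include the doublets, which held 95 of that class's 105 *Lama2* UMIs.

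The first comparison asks how 6 months of HFD went with these transcripts in WT mice. In FAP-like cells all 9 genes with enough counts were higher in the WT HFD than in the WT CD library, but none by 1.5-fold. A gene was taken as past the fold at 1.5-fold or more, provided it had 10 CPM or more in either library and 30 UMIs over both. Of all 8060 such genes 1.99% were past it in either direction, and 70.4% were higher in WT HFD, with a median log2 ratio of 0.08 against 0.29 for the 9. *Lamb1* was furthest, 1.47-fold higher (log2 0.56, 0.49 to 0.63), followed by *Lama4* (1.34-fold, log2 0.34 to 0.52), *Nid1* (1.30-fold, log2 0.34 to 0.41) and *Lama2* (1.28-fold, log2 0.30 to 0.41). These 4 were higher by 25% or more, as were 8.44% of all genes. *Nid2* (log2 0.29), *Hspg2* (0.28) and *Lamc1* (0.23) were higher by less, also with intervals above 0. *Agrn* (0.14, -0.20 to 0.47) and *Lamb2* (0.05, -0.02 to 0.13) did not differ beyond counting error.

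The higher levels of most of these genes were also found within the clusters. *Lama2*, *Lama4*, *Lamb1* and *Nid1* were higher in the WT HFD library in 8 of 8 clusters with FAP markers, the 2 with tenocyte genes included, each with its interval above 0. Of all 8094 genes with enough counts over these clusters, 8.1% were higher in 8 of 8, and 0.494% with each interval above 0, a share that depends on counts as well as on ratios. The 8 clusters come from the same pair of libraries and are not replicates. Log2 ratios ranged from 0.24 to 0.43 for *Lama2*, 0.21 to 0.73 for *Lama4*, 0.30 to 0.81 for *Lamb1* and 0.22 to 0.58 for *Nid1*. *Lamc1* and *Hspg2* were higher in 8 of 8, with intervals above 0 in 5 and 6, and *Lamb2* in 5 of 8, with 2. *Nid2* was higher in 7 of 8, with intervals above 0 in 3, and *Agrn* in 5 of 8, with 0 (log2 -0.65 to 0.83). Over the pair of clusters with tenocyte genes, *Lama4* (62.5, 106 and 71.6 CPM; 1.70-fold) and *Lamb1* (107, 168 and 138 CPM; 1.56-fold) were past 1.5-fold, 2 of 9 genes, against 2.13% of all genes in this direction. The mix of this pair differed between libraries. The cluster led by *Sfrp2* and *Avpr1a* had 404, 275 and 385 cells, and the one led by *Sfrp4* and *Dio2* had 273, 296 and 230. Mean *Lama4* was 55.7 and 105 CPM in these clusters. In the first, *Lama4* (47.9 to 70.9 CPM) and *Lamb1* (102 to 126 CPM) varied by less than 1.5-fold over the libraries. The part of this mix in the pooled ratios was not tested. Because *Lamb1* was higher and *Lamb2* was not, the *Lamb1* share of beta chain UMIs in FAP-like cells stood at 50.4, 59.1 and 57.2%.

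The FAP-like clusters differed among themselves as well. The cluster led by *Cxcl14* and *Mme* had the highest mean *Lama2* (630.2 CPM), *Lamb1* (489), *Hspg2* (682), *Lamc1* (493) and *Nid2* (129) of the 8, and the lowest *Lamb2* (142), so that 77.7% of its beta chain UMIs were *Lamb1*. The cluster led by *Dact2* and *Stmn4* had the highest *Nid1* (1208) and *Lama4* (199.6), with 37.0% *Lama4* among its alpha chains. The cluster led by *Sfrp2* and *Avpr1a*, one of those with tenocyte genes, had the lowest *Lama4* (55.7 CPM) and 88.4% *Lama2*.

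**Figure D3:**
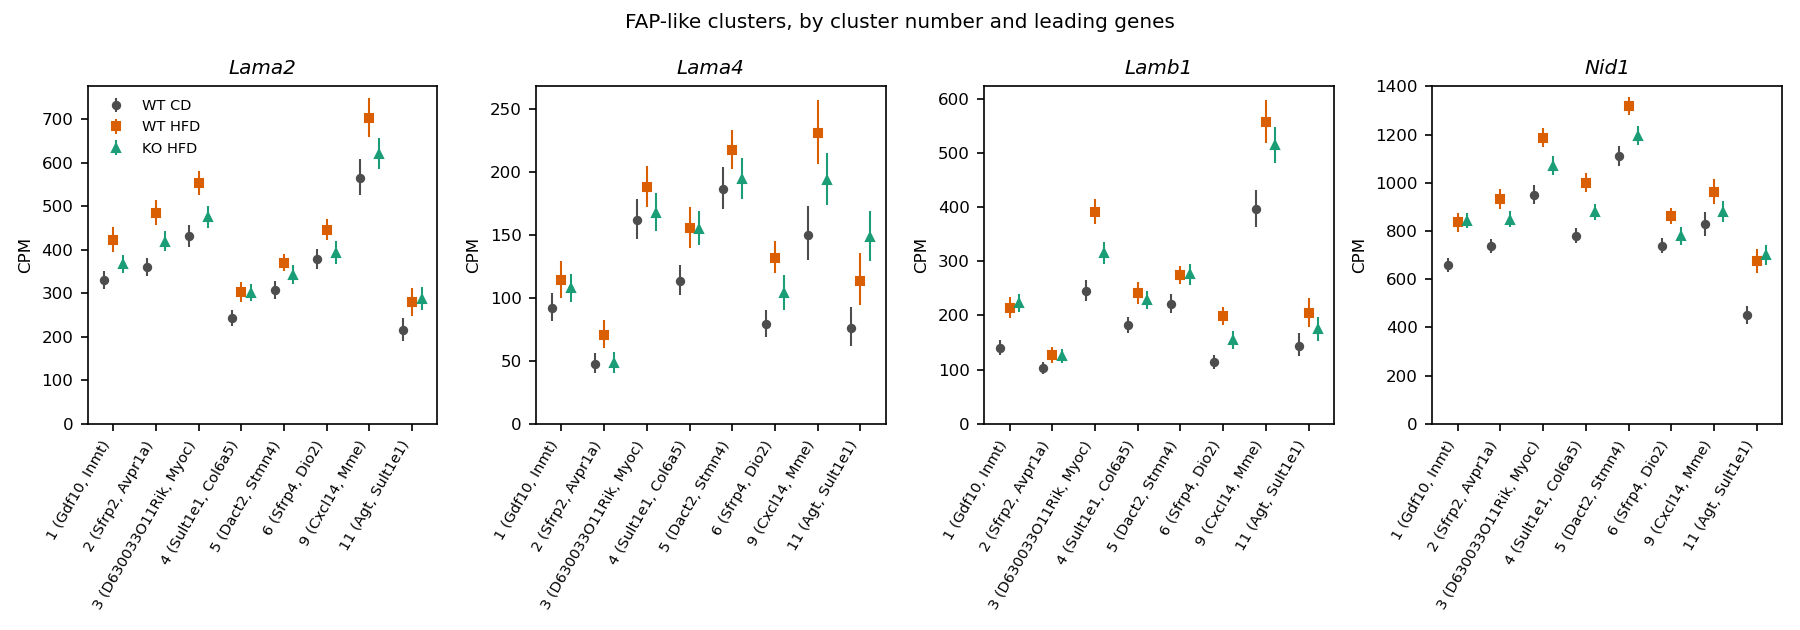
CPM of *Lama2*, *Lama4*, *Lamb1* and *Nid1* in the 8 clusters with FAP markers (x axis, cluster number and leading genes; 2 and 6 carry tenocyte genes), by library, with exact 95% Poisson intervals. The WT HFD point lies above the WT CD point in all 8 clusters of each panel.

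The second comparison asks how the deletion of *Thbs1* went with these transcripts under HFD. It uses the same WT HFD library, so a value particular to that library would enter both comparisons with opposite signs, and this cannot be told apart from effects of diet and genotype. In FAP-like cells none of the 9 genes was past 1.5-fold in KO HFD against WT HFD (0.933% of all 8042 genes were). *Nid1* (log2 -0.18, -0.21 to -0.15), *Lama4* (-0.17), *Lama2* (-0.15), *Lamc1* (-0.14), *Hspg2* (-0.14) and *Lamb1* (-0.14, -0.20 to -0.08) were slightly lower, with intervals below 0, against a median of -0.04 over all genes, of which 37.0% were above 0. *Lamb2* (-0.02), *Nid2* (0.11, -0.02 to 0.24) and *Agrn* (0.23, -0.07 to 0.53) did not differ beyond counting error. All 6 lower genes stayed above their WT CD level. In the clusters, *Hspg2* was lower in 8 of 8 (3 with intervals below 0), as were 3.71% of all 8090 genes, *Lama2* in 7 of 8 (5), *Lamc1* in 7 of 8 (2), *Nid1* in 6 of 8 (6), *Lamb1* in 6 of 8 (2) and *Lama4* in 7 of 8 (4), the exception being the cluster led by *Agt* (0.39, 0.06 to 0.71). *Nid2* was higher in 6 of 8 (0 with intervals above 0) and *Lamb2* in 4 of 8 (1 interval above 0 and 1 below). *Agrn* was higher in 3 of 8, 2 with intervals above 0 (log2 -0.34 to 1.44). Its highest ratio was in the cluster led by *D630033O11Rik* and *Myoc* (16 and 44 UMIs, log2 1.44, 0.58 to 2.36), a value chosen after it was seen. Over the pair of clusters with tenocyte genes, *Lama4* was at -0.57 (-0.76 to -0.38) and *Lamb1* at -0.28 (-0.43 to -0.14). There 2 of 9 genes were above 0, as were 45.7% of all genes. The part of the mix of this pair in these ratios was not tested.

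**Figure D4:**
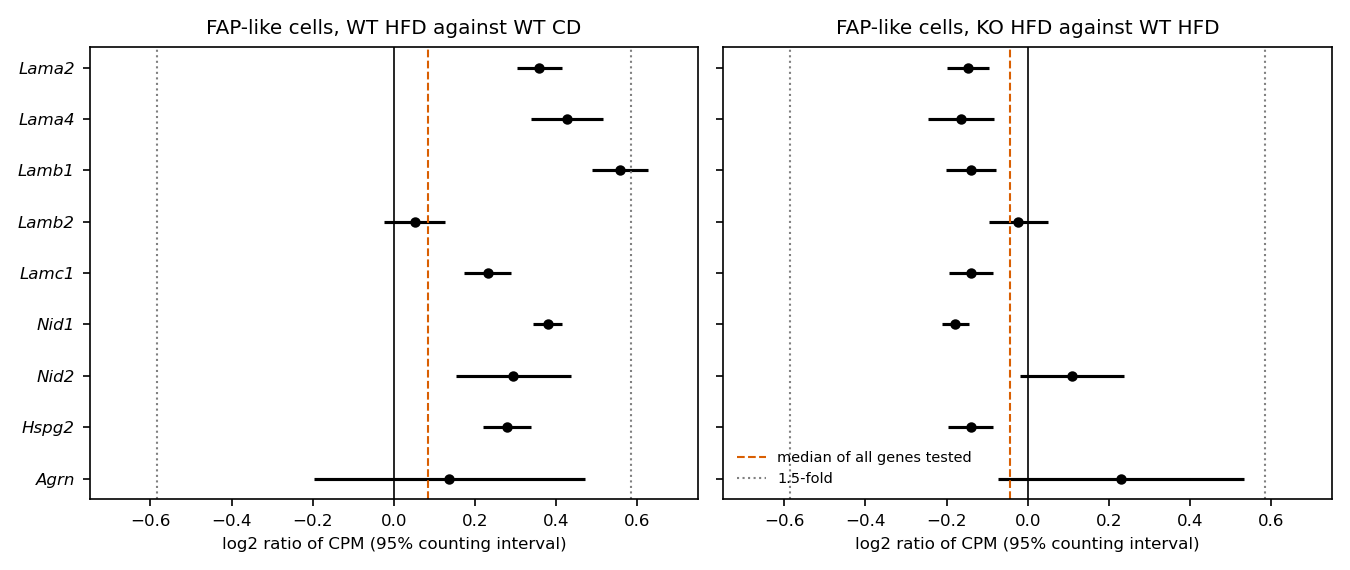
Log2 ratio of CPM (x axis) in FAP-like cells for 9 genes, WT HFD against WT CD (left) and KO HFD against WT HFD (right), with exact 95% counting intervals. The dashed line is the median of all genes tested (0.08 and -0.04) and the dotted lines are 1.5-fold. All points lie right of 0 on the left, and 7 of 9 lie left of 0 on the right, where 37.0% of all genes were above 0.

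Dissociation response genes differed between the libraries as well. Of 8 genes known to respond to tissue dissociation, 2 were past 1.5-fold in FAP-like cells (1.99% of all genes were), *Hspa1a* (334, 160 CPM; log2 -1.07) and *Hspa1b* (280.2, 122 CPM; log2 -1.20), both lower in WT HFD than in WT CD, and the summed level of the 8 was 12547, 11455 and 14199 CPM with *Fos* the most abundant. The same pair was lower in MuSC-like and endothelial-like cells. In KO HFD against WT HFD the 8 went the other way in FAP-like cells, with log2 ratios from 0.23 (*Fos*) to 0.55 (*Hspa1a*), a median of 0.36 and none past the fold. In endothelial-like cells their median was 0.39, and *Fos* (0.66) and *Atf3* (0.81) were higher past it, as 2 of 8 (6.54% of all genes), or 3 of 8 without the doublets (with *Hspa1a*; 4.93%). In these 8 genes cell handling cannot be told apart from diet or genotype, with 1 library per group. Their part in the laminin results was not tested. Myofiber markers were scarce in FAP-like cells, at a sum of 39.4, 34.8 and 32.0 CPM.

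In MuSC-like cells only *Lama2*, *Lamb2*, *Lamc1* and *Hspg2* had enough counts, and 0 of these 4 were past 1.5-fold in WT HFD against WT CD, where 21.8% of all 7017 genes were. The median log2 ratio of all genes was 0.18 there, and 68.7% were above 0. Beside that median, *Lamc1* was at 0.29 (0.01 to 0.56), *Lama2* at -0.04 (-0.33 to 0.24), *Hspg2* at -0.06 and *Lamb2* at -0.40 (-0.94 to 0.13). In KO HFD against WT HFD, 0 of 4 were past the fold (10.7% of genes), and ratios ran from -0.24 (*Hspg2*, -0.51 to 0.03) to 0.24 (*Lamb2*, -0.26 to 0.75). Erythroid markers, led by *Hbb-bs*, summed to 0.523, 0 and 337 CPM in MuSC-like cells, and their part was not tested. In WT HFD against WT CD the myofiber markers *Tnnc2* (38.2 and 75.7 CPM) and *Mylpf* (21.4 and 37.2) were higher past the fold, as 2 of 6, as was the adipocyte marker *Fabp4* (8 and 26 UMIs). The 7 myofiber markers, with *Acta1* the most abundant, summed to 241, 338 and 292 CPM and the 5 adipocyte markers to 4.70, 16.5 and 52.7, with *Cidec* and *Lep* at 0.

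In endothelial-like cells *Lamb1* was past 1.5-fold in WT HFD against WT CD, at 72.9 and 117 CPM (1.60-fold, log2 0.68, 0.28 to 1.08), as 1 of 9 genes, where 7.46% of all genes were past it in this direction and 13.1% in either. *Lama4* was next, at 1.45-fold (0.54, 0.17 to 0.91), and *Hspg2* (0.08) and *Lamb2* (-0.03) did not differ beyond counting error. Without the doublets *Lamb1* was at 61.1 and 115 CPM (0.91, 0.48 to 1.36) and *Lama4* at 84.4 and 127 (0.59, 0.20 to 0.98), so 2 of 8 genes were past the fold, against 7.33% of all genes.

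The 2 endothelial-like clusters differed in this comparison. In the larger one, led by *Slc26a10* and *Aqp7*, *Lamb1* stood at 51.4 and 124 CPM (log2 1.27, 0.78 to 1.77) and *Lama4* at 71.2 and 137 (0.94, 0.51 to 1.38). In the one led by *Plvap* and *Vwf* both were lower in WT HFD, *Lamb1* at 192 and 93.4 CPM (-1.04, -1.82 to -0.28) and *Lama4* at 176 and 93.4 (-0.91, -1.71 to -0.13). Markers of lymphatic endothelium, led by *Ccl21a*, moved in the same order as the class: their 5 genes summed to 12.6, 152 and 71.8 CPM in endothelial-like cells (11.7, 166 and 77.6 without doublets), and to 13.8, 190 and 89.6 in the larger cluster. Lymphatic-endothelial-like cells had 194, 154 and 140 CPM of *Lamb1* and more *Lama4* than any other class (above). In the *Plvap* and *Vwf* cluster the 4 FAP markers summed to 3189, 1127 and 3292 CPM, and to 40.9, 22.1 and 32.7 without doublets. The 6 mural markers summed to 10.98, 474 and 179 CPM in that cluster (13.6, 486 and 249 without doublets), while mural-like cells had means of 22.4 CPM of *Lamb1* and 46.6 of *Lama4*. The part of these 3 marker lists in the ratios was not tested.

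In KO HFD against WT HFD, *Lama2* (23.6 and 43.1 CPM, log2 0.87, 0.16 to 1.59) and *Nid2* (8.97 and 20.1 CPM, 11 and 21 UMIs, 1.17, 0.05 to 2.37) were past the fold as 2 of 10 genes in endothelial-like cells, against 6.54% of all genes higher and 13.5% in either direction. Without the doublets 0 of 8 genes with enough counts were past it (4.93% of all genes higher). *Lama2* then had 3 UMIs in WT HFD and 0 in KO HFD. *Nid2*, at 7.24 and 18.3 CPM, kept a ratio of 1.33 (0.03 to 2.77) but with 8 and 16 UMIs fell below the minimum of 30. *Nid1*, 0.36 (0.06 to 0.67) with all barcodes, was at 96.9 and 82.1 CPM without them. *Hspg2* was lower in KO HFD with all barcodes (-0.27, -0.49 to -0.06) and without the doublets (-0.35, -0.59 to -0.11), by less than 1.5-fold.

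**Figure D5:**
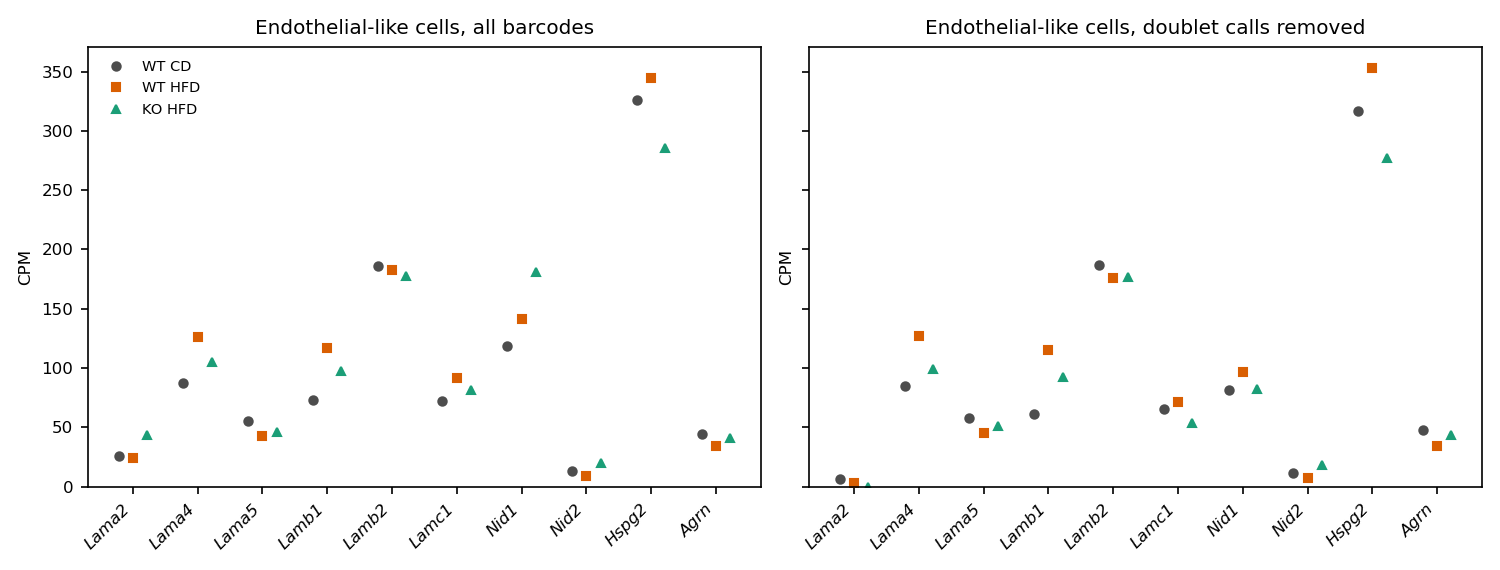
CPM of the 10 genes in endothelial-like cells by library, with all 877 barcodes (left) and without the 31 that Scrublet called as doublets (right). *Lama2* drops to at most 6.29 CPM and the KO HFD excess of *Nid1* is gone, while *Lamb1* and *Lama4* keep their higher WT HFD points.

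Mural-like and Schwann-like cells had too few UMIs for more than a rough reading. In mural-like cells 0 of 2 genes with enough counts were past the fold in WT HFD against WT CD (32% of all genes were) and 0 of 4 in KO HFD against WT HFD (29.8%), and *Lamb2* differed little (-0.24, -0.86 to 0.41, and -0.01, -0.52 to 0.50). In Schwann-like cells 0 of 3 were past it in the first comparison (21.3%). In the second, *Lamc1* was, as 1 of 5 (26.3%), at 85.3 and 139.8 CPM from 11 and 29 UMIs (0.71, -0.33 to 1.86), an interval that includes 0. Without the 2 Schwann-like doublets it was at 89.4 and 122 CPM and no longer past the fold. The 4 FAP markers, led by *Dcn*, summed to 1200, 15.5 and 1326 CPM in Schwann-like cells (*Dcn* 1162, 16.3 and 1013 CPM without doublets). The MuSC markers (7.50, 7.76 and 125 CPM), myofiber markers (195, 155 and 386) and tenocyte markers (82.5, 7.76 and 260) also summed highest in KO HFD. The macrophage markers (1342, 3189 and 1408) summed highest in WT HFD. The part of these marker lists in the *Lamc1* values was not tested.

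The 20 genes for collagen IV and linked basement membrane proteins were read beside them. The most abundant in FAP-like cells were *Sparc*, which encodes a collagen-binding matricellular protein (2351, 3285 and 2679 CPM), *Fbln2* (984, 1126 and 1006) and *Smoc2* (766, 977 and 912). Of the 12 with enough counts, 1 was past 1.5-fold in WT HFD against WT CD, the collagen IV chain *Col4a1* (432, 663 and 578 CPM, log2 0.62, 0.57 to 0.66), against 1.99% of all genes. The median of the 12 was 0.33, beside 0.08 for all genes. Its partner chain *Col4a2* (149, 218 and 195 CPM; log2 0.55) was named after its value was seen, and *Fbln1*, encoding fibulin, was lower (510.3, 402 and 407 CPM; log2 -0.34). In KO HFD against WT HFD 0 of 12 were past it (median -0.13), against 0.933% and a median of -0.04 for all genes, and *Col4a1* was at -0.20 (-0.24 to -0.15).

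In MuSC-like cells 4 of 9 genes of this list were past 1.5-fold in WT HFD against WT CD, where 17.1% of all genes were higher by that much: *Sparc* (541, 1185 and 821 CPM, log2 1.13), *Pxdn*, the peroxidase that crosslinks collagen IV (20.4, 44.6 CPM, 1.13), *Col15a1* (86.2, 151 and 157 CPM, 0.81) and *Col4a1* (266, 436 and 351 CPM, 0.72). The list's median was 0.54 beside 0.18 for all genes, and 0 of 9 were past the fold in KO HFD against WT HFD (10.7% of all genes were), with a median of -0.29 beside -0.05 for all genes. The summed myofiber markers were also higher in WT HFD than in WT CD (above), and their part was not tested. In endothelial-like cells *Sparc* (1250, 1474 and 1225 CPM), *Col4a1* (762, 909 and 814) and *Fbln2* (589, 633 and 724) led, and *Col18a1* (15 and 34 UMIs) and *Ntn4* (14 and 23 UMIs) were the 2 of 11 past the fold in WT HFD against WT CD, where 7.46% of all genes were higher by that much. In KO HFD against WT HFD 4 of 11 were higher past it, *Fbln1*, *Col15a1*, *Ntn4* and *Smoc2* (6.54% of all genes), and without the doublets 2 of 9, *Col15a1* and *Col18a1* (4.93%).

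Receptors for these proteins were read in the same way. Of 20 receptor genes, the most abundant in FAP-like cells were syndecan *Sdc2* (379, 473 and 436 CPM), the integrin beta chain *Itgb1* (313, 375 and 347) and dystroglycan *Dag1* (119, 143 and 125), and 0 of 9 with enough counts were past 1.5-fold in either comparison (1.99 and 0.933% of all genes were). Their medians were 0.25 and -0.07, beside 0.08 and -0.04 for all genes. MuSC-like cells had more *Dag1* (822, 1007 and 853 CPM) and *Sdc4* (1185, 1084 and 1005), beside *Itgb1* (268, 289 and 267). In WT HFD against WT CD 2 of their 12 receptor genes were higher past the fold, *Mcam* (12 and 24 UMIs) and *Bcam* (12 and 19), and 1 lower, *Sntb1* (26 and 7), against 21.8% of all genes past it in either direction. The median of the 12 was 0.11, beside 0.18 for all genes. In KO HFD against WT HFD 1 of 12 was past it, *Sntb1* again (30 UMIs in KO HFD), against 10.7%. Endothelial-like cells were led by *Itgb1* (574, 614 and 592 CPM), *Utrn* (524, 475 and 415) and *Itga1* (330.1, 369 and 248). There *Sdc2* (17 and 41 UMIs) was past the fold in WT HFD against WT CD and *Sdc4* (30 and 47 UMIs) in KO HFD against WT HFD, as 1 of 12 each (7.46 and 6.54% of all genes were higher by that much), and without the doublets 0 of 10 and 0 of 11 were. The medians of the 12 were 0.20 and -0.06, beside 0.01 and -0.02 for all genes. Without the doublets the receptor medians were 0.11 and -0.04, beside 0.01 and -0.02 for all genes.

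The enzymes that build the laminin-binding glycan of dystroglycan were low. In FAP-like cells *Rxylt1* (69.6, 76.3 and 73.8 CPM) and *B4gat1* (44.1, 41.8 and 41.5) were among the most abundant, and 0 of 8 were past 1.5-fold in WT HFD against WT CD and 0 of 9 in KO HFD against WT HFD (1.99 and 0.933% of all genes were), with medians of 0.06 and -0.06. In MuSC-like cells *B4gat1* was higher (37 and 50 UMIs) and *B3galnt2* lower (29 and 13 UMIs) past the fold in WT HFD against WT CD, as 2 of 4 (21.8% of all genes in either direction), and in endothelial-like cells *Pomgnt1* was lower (23 and 13 UMIs), as 1 of 5 (13.1%). In KO HFD against WT HFD 0 of 6 were past it in MuSC-like cells (10.7%) and 0 of 3 in endothelial-like cells (13.5%). Without the doublets 1 of 3 was higher past it in endothelial-like cells, *B4gat1* (4.93% of all genes). Of the 5 other laminin chains 1 in each class had enough counts in FAP-like, MuSC-like and endothelial-like cells, and 0 of 1 were past the fold in FAP-like and in MuSC-like cells in either comparison. *Lama3* had 33.5, 23.6 and 15.3 CPM in endothelial-like cells. It was past the fold in KO HFD against WT HFD, where 13.5% of all genes were (29 and 16 UMIs, log2 -0.63, -1.60 to 0.30), with an interval that includes 0. Without the doublets the 1 chain with enough counts was at log2 -0.47, not past the fold.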

How the data were processed

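Mononuclear cells were captured with 10x Genomics 3′ chemistry and 3 libraries were made, 1 per group. The authors deposited whole-number UMI counts per gene and cell barcode, not normalized, made with Cell Ranger (6.1.1 in the submitters' processing notes, 6.1.0 in the file headers) on GRCm38. All 12275 barcodes were kept. In Python 3.11.15 (scanpy 1.11.5, leidenalg 0.10.2, numpy 2.4.6, scipy 1.17.1, pandas 2.3.3; plots with matplotlib 3.10.9), cells were scaled to 10000 counts and log-transformed, and 2000 variable genes, 30 components, 15 neighbours and Leiden resolution 1 gave 30 clusters. The basement membrane genes (68 symbols) were left out. Clusters were named by the markers most raised over the other clusters (a mean log2 ratio of 1 or more, 3 markers each in 10% of cells). Unnamed cells were 3.34, 3.63 and 4.44%. A rebuilt class can differ from the study's. Scrublet (expected rate 0.06) called 1.26, 1.09 and 1.33% of barcodes as doublets, which were kept unless stated.

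UMIs were summed per class and library and divided by their total (CPM). Poisson, Clopper-Pearson and conditional binomial intervals were exact, at 95%. Depth, 31967976 to 36478779 UMIs per library, gave narrow intervals in FAP-like and wide ones in small classes. No test was made, as cells are not replicates. Ratio code was tested on simulated data. Alternatives were a per-cell marker gate, other resolutions, doublets removed, a cell filter, TMM scaling (edgeR 4.0.16, R 4.3.3), per-cell means, clusters weighted alike, no filter on low values, a fold of 25% more and a wider FAP class, the last pair added after seeing the data.

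The members and lists were chosen with earlier results of these data known. All 10 members were named, and of each other list the 3 genes with the highest mean CPM in FAP-, MuSC- and endothelial-like cells and those past 1.5-fold (at most 4 per comparison). Up to 3 genes with the most similar pattern, with at least 20 CPM in 1 class, were named per member. Lists were other laminin chains, collagen IV and linked proteins, receptors, dystroglycan glycosylation enzymes and dissociation response genes. Some genes are not reported here.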

Additional observations from a re-analysis of the deposited data

How the results depend on the processing

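No paired analysis was possible because each group is 1 library and no difference came from a test. Leaving out a replicate was not possible either. In FAP-like cells the WT HFD against WT CD ratios of *Lama2*, *Lama4*, *Lamb1*, *Lamc1*, *Nid1*, *Nid2*, *Hspg2* and *Agrn* stayed above 0 in 10 of 10 alternatives, and that of *Lamb2* in 8 of 10 (-0.02 to 0.08).

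The number of members past 1.5-fold changed as follows, and where no construction shows it the cause was not tested. Apart from endothelial-like cells without doublets (above) and the 25% count in FAP-like cells, no share of all genes stands beside these counts. They are therefore not results about the members. With cells gated one by one by markers it was 1 (FAP), 2 (endothelial) and 1 (Schwann) for WT HFD against WT CD, and 1 (endothelial), 1 (mural) and 0 (Schwann) for KO HFD against WT HFD. At Leiden resolution 2 it was 1 for FAP, and at 0.5 it was 1 for MuSC, in WT HFD against WT CD. With doublets removed it was 2 for endothelial (WT HFD against WT CD), and 0 for endothelial and 0 for Schwann (KO HFD against WT HFD). With at least 500 genes and at most 10% mitochondrial UMIs it was 1 for endothelial (KO HFD against WT HFD). With TMM it was 1 for MuSC (WT HFD against WT CD) and 2 for Schwann (KO HFD against WT HFD). With per-cell means it was 2 for mural (WT HFD against WT CD) and 0 for Schwann (KO HFD against WT HFD). Without a filter on low values, which adds genes with few UMIs, it was 2 (MuSC), 5 (mural) and 5 (Schwann) for WT HFD against WT CD, and 3 (MuSC), 2 (mural) and 5 (Schwann) for KO HFD against WT HFD. Counting members that differed by 25% or more gave 4 (FAP, all higher, as were 8.44% of all genes), 1 (MuSC), 5 (endothelial) and 1 (Schwann) for WT HFD against WT CD. For KO HFD against WT HFD it gave 3 (endothelial), 2 (mural) and 2 (Schwann).

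With the filter of 500 genes, 0 members were highest in endothelial-like and 1 in Schwann-like cells. With per-cell means 2 were highest in endothelial-like and 6, not 7, in FAP-like cells. The *Lama2* percent of alpha chain UMIs in FAP-like cells was 74.0 with the gate, 74.1 at resolution 2, 72.3 with per-cell means and 74.5 with the 2 tenocyte-gene clusters. It was 90.3 in MuSC-like cells at resolution 0.5, 2.04 (doublets removed) and 5.48 (per-cell means) in endothelial-like cells and 60.7 in mural-like cells (per-cell means). The *Lama2* ratio of KO HFD against WT HFD in endothelial-like cells reversed with the gate, to -0.28. Depth limits the mural-like and Schwann-like values, many of which rest on fewer than 30 UMIs.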
